A study of Mus musculus with 5 samples.

Results

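Collagen genes were taken as every gene of the count tables whose symbol is Col, a number, the letter a and a number, which gave 44 of the 32285 genes listed. They were described across the cell classes of the mouse mammary gland and between genotypes. Transcripts of mammary gland cells from 5 mice had been counted by droplet single-cell RNA sequencing with unique molecular identifiers (UMIs), with 1 library per mouse. Of these, 3 libraries were labelled Frmd3 knockout (KO1, KO2 and KO3) and 2 were labelled wild type (WT1 and WT2). FRMD3 is a FERM-domain protein, and the series title ties it to mammary epithelial cell fate and Notch signalling. The labels used here give tissue, genotype and replicate number, and no allele, strain, sex or age. Wherever 5 values are listed below, the KO libraries come first, by number, and the WT libraries follow.

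Collagens are secreted or membrane-bound proteins built as helical trimers of alpha chains, each chain with its own gene. Fibrillar collagens such as types I, III and V form the tensile fibers of stroma, type IV chains form the sheet-like network of basement membranes, and type VI forms beaded filaments between them. In the mammary gland, fibroblasts are known as the main makers of fibrillar collagen, while basal myoepithelial cells lie on the basement membrane that surrounds the ducts.

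The filters left 26834 of 32472 barcodes, with medians of 4265.5 to 12990.5 UMIs per cell between libraries. KO1 stood apart because 40.6% of its cells lay in clusters that could not be named, against 5.52% to 9.87% in the others. Most of these were a cluster of 3639 KO1 cells led by macrophage genes such as Lyve1 and Cd209f, with more fibroblast-marker than macrophage-marker RNA. KO3 had the largest share of barcodes over the mitochondrial limit, 18.5%, and its fibroblast-like cells had summed heat-shock genes at 4779 CPM (counts per 1000000 UMIs) against 251.0 to 362.5 in the others. Pairs of libraries shared 3 to 22 barcodes. Frmd3 itself was counted at 2.04, 3.12, 1.93, 1.28 and 2.33 CPM over all cells used. The genotypes overlapped, and 3′ tags check the knockout label only if the deleted part holds them, which the labels do not say. The genotype names below are therefore those of the labels.

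Every one of the 44 collagen genes had at least 1 UMI, and together they gave 5906453 UMIs. Col3a1, Col1a2 and Col1a1, the chains of types III and I, held 79.8% of them. At the other end, Col22a1 had 1 UMI, Col10a1 11 and Col19a1 42. By structure the genes were 11 fibrillar chains, 6 type IV chains, 6 type VI chains, 9 fibril-associated chains, 2 multiplexins (Col15a1 and Col18a1), 4 transmembrane chains, 3 short-chain network types, the anchoring-fibril gene Col7a1, and Col26a1 and Col28a1. The 3′ kit gives 1 tag per captured transcript end, so levels are CPM over all cells of a class in a library and were not divided by gene length. The exons of 13 of the genes overlap another annotated gene, 10 of them on the opposite strand. Whether strand was used in counting is not given in the sources used here, so the tags of such pairs may not be fully separable.

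Col4a1 and Col4a2 are an opposite-strand pair, but they overlap only at the starts of both genes, not at the 3′ ends that the kit tags. They encode the chains of the most widespread type IV trimer and are transcribed away from each other on chromosome 8, Col4a1 at 11198423 to 11312826 on the minus strand and Col4a2 at 11312805 to 11449287 on the plus strand (mm10). Their start sites in RefSeq (GRCm38.p6) were 21 bases apart, and both promoter windows, 250 bases before to 50 after the start, shared 78 bases. These windows are shown because both chains moved together between libraries in fibroblast-like cells, as given below. Col1a2 is shown as the promoter of an abundant fibrillar chain. Capitals mark CCAAT or its reverse complement ATTGG.
Col4a1, chr8:11312777-11313076, minus strand: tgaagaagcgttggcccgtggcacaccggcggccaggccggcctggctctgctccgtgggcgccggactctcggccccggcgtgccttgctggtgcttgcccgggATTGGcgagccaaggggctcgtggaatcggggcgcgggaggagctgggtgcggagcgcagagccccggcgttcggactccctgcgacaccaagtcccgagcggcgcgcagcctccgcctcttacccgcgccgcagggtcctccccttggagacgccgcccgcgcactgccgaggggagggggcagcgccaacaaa
Col4a2, chr8:11312555-11312854, plus strand: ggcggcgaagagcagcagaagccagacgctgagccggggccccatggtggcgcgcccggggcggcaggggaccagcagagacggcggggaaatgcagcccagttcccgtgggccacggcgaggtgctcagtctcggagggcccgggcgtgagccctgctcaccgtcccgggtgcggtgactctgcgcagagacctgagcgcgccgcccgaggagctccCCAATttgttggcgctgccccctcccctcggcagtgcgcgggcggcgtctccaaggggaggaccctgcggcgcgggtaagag
Col1a2, chr6:4505368-4505667, plus strand: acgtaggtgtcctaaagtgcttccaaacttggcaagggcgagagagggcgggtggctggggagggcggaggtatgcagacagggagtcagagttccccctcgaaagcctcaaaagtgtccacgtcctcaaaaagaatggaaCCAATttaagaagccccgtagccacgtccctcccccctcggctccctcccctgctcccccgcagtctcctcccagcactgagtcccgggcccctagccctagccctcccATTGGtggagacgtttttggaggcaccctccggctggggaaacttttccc
Of the 38 collagen windows, which covered 35 of the genes, 13 held CCAAT on either strand, 34.2%. Over all 32851 windows of the same length the share was 37.4%, a little above that of the collagen windows.

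Fibroblast-like cells devoted more of their RNA to collagen than any other named class. Their collagen share of UMIs was 2.69%, 6.48%, 4.61%, 2.23% and 6.13%, with a mean of 4.43% ± 1.94 (SD, n = 5). KO2 and WT2 were the highest libraries and WT1 the lowest. Schwann/glial-like cells followed at 0.954% ± 0.219 (SD, n = 3), then basal/myoepithelial-like cells at 0.485% ± 0.156, pericyte/smooth muscle-like cells at 0.481% ± 0.266 (both n = 5) and blood endothelial-like cells at 0.303% ± 0.112 (n = 4). Basal, pericyte and endothelial levels lay within their spread of each other. Mean shares were 0.0538% ± 0.0211 in luminal progenitor-like and 0.0410% ± 0.0282 in hormone-sensing luminal-like cells. Neither mean was higher than that of lymphocytes (T, NK and B cells pooled), 0.0663% ± 0.0549 (all n = 5). Within libraries, progenitor cells were above lymphocytes in KO1 (0.0481% against 0.0315%), KO3 (0.0349% against 0.0254%) and WT1 (0.0376% against 0.02215%). They were below lymphocytes in KO2 and WT2. Hormone-sensing cells were above lymphocytes in WT1 alone, at 0.0229%. Lymphocytes are not known to make fibrillar collagen, and free RNA in the droplets gives UMIs in cells that do not express a gene. The fibroblast-like class held 84.2% to 96.8% of each library's collagen UMIs. An unnamed cluster of 126 cells, described below, had a higher collagen share than the fibroblast-like class in each library where its level is given. All class levels are descriptions with no test, because the classes were cut from the same cells; the clusters were built without the collagen genes.

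**Figure D1:**
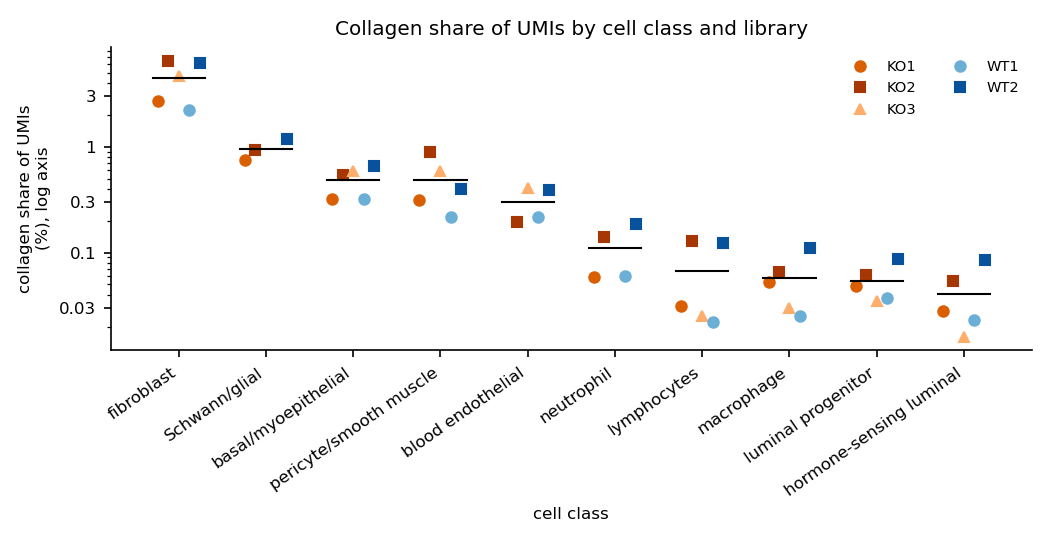
Collagen share of UMIs (%, log axis) in each cell class, 1 point per library with at least 20 cells of the class; black lines are means over libraries. Fibroblast-like cells lie highest in every library, between 2.23% and 6.48%, and both luminal classes lie within or below the range of lymphocytes.

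Different classes led for different chains. Among the 31 genes that reached 10 CPM in some class with at least 4 libraries, the highest mean was in fibroblast-like cells for 13, in basal/myoepithelial-like cells for 13, in pericyte/smooth muscle-like cells for 3 and in blood endothelial-like cells for 2. The fibroblast set held the chains of types I, III, V and VI, together with Col4a4, Col14a1 and Col15a1. The basal set held Col4a1, Col4a2, Col4a5, Col4a6, Col7a1, Col9a1, Col9a2, Col9a3, Col11a1, Col12a1, Col16a1, Col17a1 and Col23a1. Among the classes ranked, pericyte-like cells led for Col18a1, Col19a1 and Col27a1, and endothelial-like cells for Col8a1 and Col13a1. Some of these leads were narrow: Col27a1 was at 56.0 ± 23.1 in pericyte-like against 50.5 ± 37.1 CPM in fibroblast-like cells (SD, n = 5 each), and the pericyte level was the higher in 3 of 5 libraries. Col4a2 was higher in basal than in pericyte-like cells in 3 of 5 libraries, and Col13a1 higher in endothelial-like than in fibroblast-like cells in 2 of 4. Others were wide: Col17a1 was at 295.3 ± 17.8 in basal cells and at 1.19 in hormone-sensing luminal-like cells, the next class. Schwann/glial-like cells, with 3 libraries, and the unnamed clusters were outside this ranking. Schwann/glial-like cells had Col27a1 at a mean of 266.6 CPM, above pericyte-like cells. An unnamed cluster of 126 cells, described below, had Col8a1 at a mean of 311.0, against 128.1 in endothelial-like cells.

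**Figure D2:**
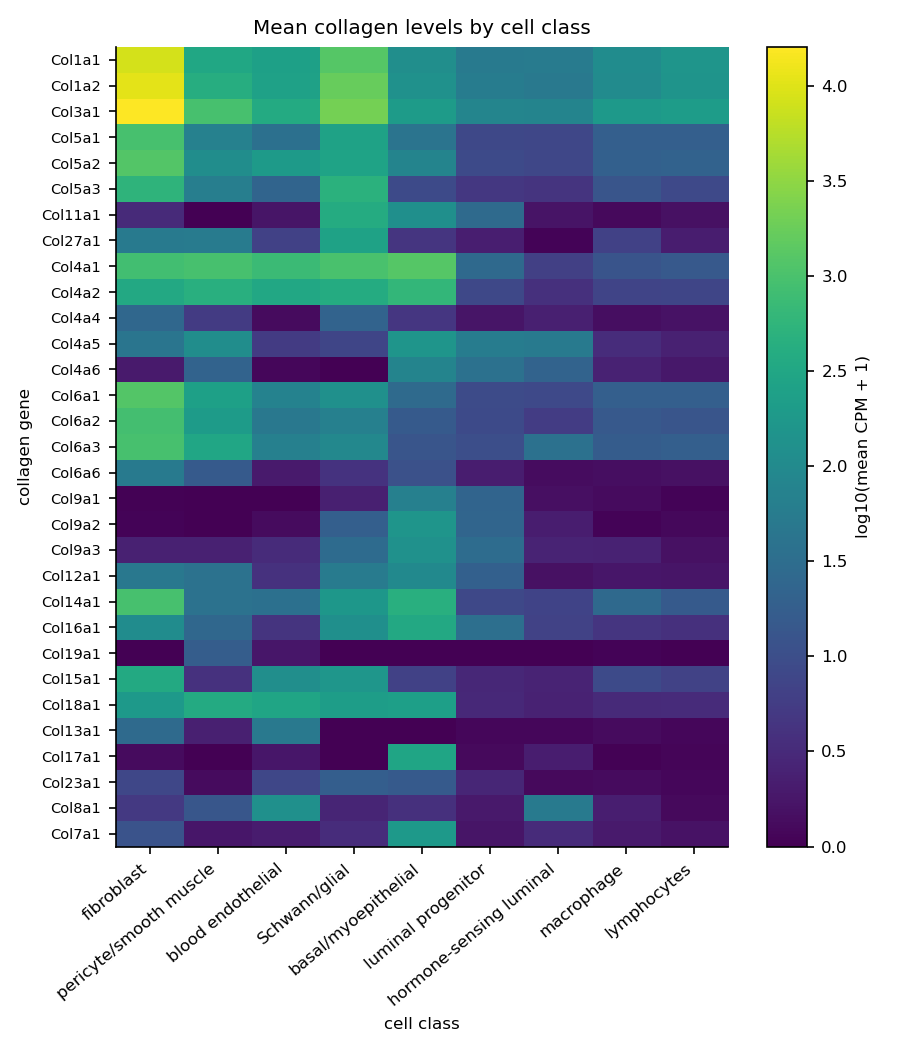
Mean level of the 31 collagen genes that reached 10 CPM, by cell class, as log10(mean CPM + 1). Types I, III, V and VI are brightest in fibroblast-like cells; Col4a1 is bright in all stromal and vascular classes and in basal cells; Col7a1, Col9a2 and Col17a1 are brightest in basal cells.

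In fibroblast-like cells the 3 leading genes were far ahead of the rest. Col3a1, whose homotrimer mixes into type I fibrils, was at 9214, 24515, 16690, 7203 and 22410 CPM. Col1a2, the second chain of type I, was at 5807, 16508, 12217, 4620 and 15649. Col1a1, its first chain, was at 4038, 14363, 6606, 3217 and 14345. For all 3 genes KO2 and WT2 were the highest libraries, KO3 lay between, and KO1 and WT1 were lowest, so 1 library of each genotype sat at both ends. The type V chains, which help to set fibril width, followed with Col5a2 at 1186 ± 256, Col5a1 at 947.6 ± 339.0 and Col5a3 at 543.8 ± 102.2 (SD, n = 5). The type VI chains were at similar levels, Col6a1 at 1179 ± 133, Col6a3 at 970.0 ± 209.7 and Col6a2 at 878.9 ± 150.4. Type VI varied less between libraries than type I. Col14a1, a fibril-associated chain, was at 617.9, 1786, 478.1, 442.2 and 1479, again highest in KO2 and WT2. In all, 17 of the 44 genes reached 50 CPM in this class and 34 reached 1.

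A second set ran the other way between the same libraries. Col4a1 was at 831.2, 404.9, 1611, 970.4 and 427.3 CPM in fibroblast-like cells. Col15a1, a multiplexin of basement membrane zones, was at 377.1, 104.4, 720.6, 464.1 and 143.1. Col18a1, the multiplexin that gives rise to endostatin, was at 173.5, 30.9, 443.9, 206.7 and 49.5. KO2 and WT2 were the lowest libraries for these genes and KO3 the highest. Col13a1, a transmembrane chain, showed the widest range of these genes, 26.3, 0.418, 67.2, 39.8 and 2.22. As a share of fibroblast collagen UMIs, type IV chains were thus at 1.07% in KO2 and 1.17% in WT2 against 4.54% in KO1, 4.94% in KO3 and 6.39% in WT1.

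Both patterns were compared with all genes. KO2 and WT2 were the 2 highest of the 5 libraries for 14 of the 35 collagen genes tested in fibroblast-like cells, against 22.9% of all 14126 genes, and the 2 lowest for 11, against 24.7%. Neither count was tested, and this pairing of libraries was noticed in the values first. Fibroblast-like cells of KO2 and WT2 were also the deepest, with medians of 16280.5 and 16026 UMIs per cell against 11242.5, 8957 and 10349 in KO1, KO3 and WT1. The part of depth in these levels was not tested. The summed level of 10 fibroblast markers did not follow the pattern: it was 30770, 29640, 22336, 29396 and 31769 CPM. Of 44 genes for collagen folding, secretion, processing, cross-linking, binding and uptake, 43 were tested and 24 were highest in KO2 and WT2. Sparc and Pcolce are named after their values were seen. Sparc, a collagen-binding matrix protein, was at 4575, 16560, 8923, 3249 and 15319 CPM after TMM scaling, and Pcolce, which enhances procollagen processing, at 328.3, 829.3, 265.8, 332.0 and 725.8.

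The fibroblast-like class was made of 5 clusters, numbered here 1, 2, 5, 8 and 15, in different proportions between libraries. Cluster 1, led by Hmcn1, Enpp2 and Hc, held 1312, 35, 592, 817 and 146 cells. Of the 5 clusters it had the highest means of Col4a1, Col4a2, Col13a1, Col15a1 and Col18a1. Col4a3 and Col4a4 had theirs in cluster 8 and Col4a5 in cluster 5. Col4a1 averaged 1512 ± 474 CPM in cluster 1 and 1096 ± 252 in cluster 8, which was the higher in KO2 alone (1127 against 979.7). Col15a1 averaged 841.9 ± 137.1 CPM in cluster 1, against 9.48 ± 7.46 in cluster 2, led by Krtdap and Sbsn (SD, n = 5). Col18a1 averaged 447.3 ± 140.8 in cluster 1 and 17.9 ± 4.83 in cluster 2. Col13a1 was at 66.2 ± 33.7 in cluster 1 and no higher than 2.97 in any library of the other clusters. KO2 and WT2 thus held few cells of the cluster where these genes were highest. Cluster 8, led by Gdf10, had the highest mean of Col1a1, 11315 ± 7875, and of Col3a1, 16936 ± 10506, and also 514.0 ± 90.6 of Col15a1. Cluster 1 was above cluster 8 for Col3a1 in KO1 (11950 against 10272), KO3 (19807 against 11971) and WT1 (9112 against 6371.5). For Col1a1 cluster 1 was above it in KO3 alone. Col14a1 was highest in cluster 2, at 1359 ± 576, and lower in cluster 1, at 402.8 ± 215.5.

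Within clusters the high level of Col1a1 in KO2 and WT2 was still present. Col1a1 in cluster 5, led by Cxcl13 and Sfrp2, was at 4025, 15860, 4992, 2862 and 15132 CPM. In cluster 15, led by Akr1c14, it was at 2920, 15420, 3064, 1984 and 16110. KO2 and WT2 were the highest libraries for Col1a1 in all 5 clusters. For Col1a2 and Col3a1 the same held in 4 clusters. In cluster 1 KO3 was above KO2 for Col3a1, at 19807 against 15095. For Col1a2 in cluster 1 KO3, at 13931, was above both WT2, at 13271, and KO2, at 9728.5. Among genes at 10 CPM or more, KO2 and WT2 were both highest for 5 of 22 collagen genes in cluster 1 (9.72% of all genes at that level), 10 of 20 in cluster 2 (16.3%), 10 of 20 in cluster 5 (12.6%), 12 of 21 in cluster 8 (10.4%) and 14 of 20 in cluster 15 (12.3%). They were both lowest for 4 collagen genes in cluster 1 (Col4a1, Col4a2, Col13a1 and Col27a1; 21.7% of all genes), 2 in cluster 2 (Col4a1 and Col6a5; 20.6%), 3 in cluster 5 (Col4a1, Col15a1 and Col18a1; 24.5%), 1 in cluster 8 (Col18a1; 24.5%) and 0 in cluster 15 (13.1%). The share of collagen genes that were lowest was thus below that of all genes in each of the 5 clusters. Col15a1 in cluster 8 was at 513.5, 491.7, 656.9, 405.3 and 502.8, a narrow range in which KO2 and WT2 lay in the middle.

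**Figure D3:**
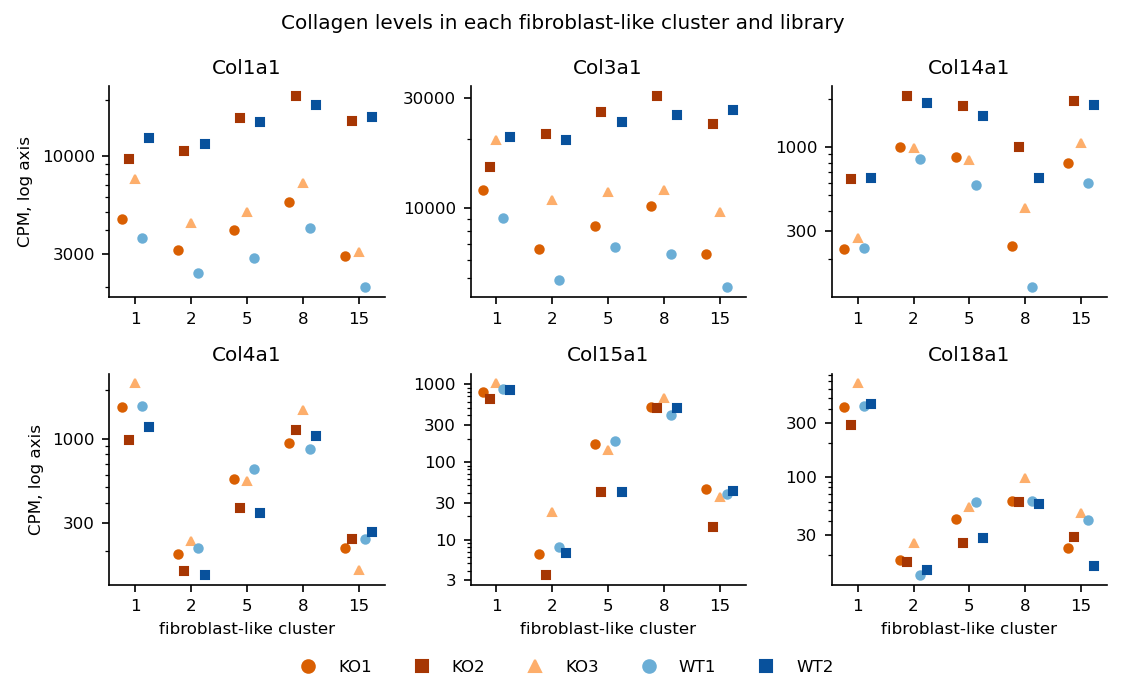
CPM (log axis) of 6 collagen genes in the 5 fibroblast-like clusters, 1 point per library. KO2 and WT2 (squares) are the highest points for Col1a1 in every cluster, while Col15a1 and Col18a1 are highest in cluster 1 in every library.

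Ratios between chains were compared within libraries, and that of the main type IV chains was narrow in fibroblast-like cells. Col4a1 to Col4a2, the pair whose promoters are shown above, had ratios of 2.43, 2.43, 2.60, 2.33 and 2.28 in fibroblast-like cells, while Col4a1 itself ranged from 404.9 to 1611 CPM. The ratio was 1.49 to 2.33 in basal cells and 1.58 to 2.41 in pericyte-like cells. Where both genes had at least 50 UMIs, it was 2.79 to 3.40 in luminal progenitor-like and 2.50 to 2.99 in Schwann/glial-like cells. Blood endothelial-like cells ranged more widely, with 4.03 in KO2, 2.03 in KO3 and 1.92 in WT1. Col6a1 to Col6a2 ran from 1.14 to 1.51 in fibroblast-like cells. Col1a1 to Col1a2, whose protein trimer uses the first chain in excess, ran from 0.541 in KO3 to 0.917 in WT2, and Col3a1 to Col1a1 from 1.56 in WT2 to 2.53 in KO3. Col5a2 to Col5a1 was 0.946 in KO2 and 0.983 in WT2 against 1.35 to 1.86 in the others. Tags count captured transcript ends, so these ratios do not give protein stoichiometry.

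Basal/myoepithelial-like cells had the basement membrane and hemidesmosome collagens of the epithelium. There were 130, 33, 35, 133 and 69 such cells. Col4a1 was at 579.7, 1477, 1990, 738.4 and 1441 CPM, and Col4a2 at 389.7, 705.6, 853.4, 413.4 and 621.8. Col14a1 was at 361.3, 563.3, 473.6, 321.2 and 486.5. For these genes KO1 and WT1 were the lowest libraries. Col16a1, a fibril-associated chain, was steadier at 344.8 ± 41.8, as was Col17a1, the hemidesmosome collagen that anchors basal epithelial cells, at 295.3 ± 17.8 (SD, n = 5). Col7a1, which builds anchoring fibrils, was at 189.1 ± 60.5. The X-linked type IV chains Col4a5 and Col4a6, which lie head to head, were at 156.8 ± 15.7 and 77.2 ± 17.1.

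The type IX chains, better known from cartilage, also had their highest means in basal cells. Col9a2 was at 153.7 ± 43.0 and Col9a3 at 132.5 ± 26.2 CPM, and both were above luminal progenitor-like cells, the next class, in 5 of 5 libraries. Col9a1 was at 13.1, 88.2, 138.5, 13.1 and 76.7, above progenitor cells in 3 of 5 libraries and below them in KO1 and WT1. KO1 and WT1 were also the lowest libraries for both partner chains, by a smaller margin: Col9a2 was at 125.5 and 116.8 there against 146.3 to 225.6 in the others. Col11a1, a fibrillar chain also known from cartilage, was at 38.2, 150.3, 196.6, 42.3 and 177.0, and Col18a1 at 59.0, 324.7, 350.7, 67.6 and 364.0. KO1 and WT1 were below the other 3 libraries for Col9a1, Col11a1 and Col18a1, without overlap. Their basal cells were also the shallowest, with medians of 6362 and 9236 UMIs against 11543, 11565 and 17837; the part of depth was not tested.

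Fibrillar type I and III tags in basal cells followed a different pattern. Col3a1 was at 80.8, 206.5, 24.6, 50.7 and 662.8 CPM, and Col1a1 at 32.8, 192.4, 2.23, 16.1 and 357.3. Lymphocytes of the same libraries had Col3a1 at 88.5, 387.5, 66.8, 52.2 and 434.4. Basal cells were above the lymphocytes for Col3a1 in WT2 alone, where their summed fibroblast markers were also highest, 1566 against 650.8 to 783.8 CPM. Of the 27 collagen genes at 5 or more CPM in basal cells, 18 were above the lymphocyte level in every library and 0 were below it in every library. The minimum of 5 and this count were chosen after the values were seen. No share over all genes is set beside it, so it describes the collagen genes alone.

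Luminal cells showed few collagen tags, and those of Col1a1, Col1a2, Col3a1, Col5a1 and Col5a2 were below the lymphocyte level in every library of both luminal classes. In hormone-sensing luminal-like cells Col3a1 was at 36.8, 114.0, 7.33, 18.3 and 219.9 CPM, lower than in the lymphocytes of each library. Of the 13 collagen genes at 5 or more CPM there, 8 were below the lymphocytes in every library: Col1a1, Col1a2, Col3a1, Col4a1, Col5a1, Col5a2, Col6a1 and Col14a1. In luminal progenitor-like cells 6 of 19 were, with Col3a1 at 66.7, 107.9, 27.3, 32.1 and 170.6. The part of free RNA in these tags was not tested. No share over all genes is set beside these counts either. Median depths were 14710 to 25975.5 UMIs in hormone-sensing and 7201 to 16501 in progenitor cells, against 3802 to 5186 in lymphocytes.

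A small set of collagens was above the lymphocyte level in every library of luminal cells. In hormone-sensing cells Col8a1, a short-chain network collagen, was at 35, 37.5, 27.6, 42.7 and 114.8 CPM, while lymphocytes had 0 to 1.32. Col4a5 was at 31.1, 90.3, 39.4, 14.5 and 81.5, and Col4a6 at 12.01, 39.3, 17.9, 3.17 and 32.2. WT2 stood out for Col8a1, and KO2 and WT2 were highest for both type IV chains. Cluster 4 held most hormone-sensing cells of KO2 and WT2, cluster 9 most of KO1 and WT1, and cluster 14 most of KO3. Col6a3 was at 52.3, 15.5, 10.2, 86.6 and 18.0, highest in KO1 and WT1, and was above the lymphocytes in 3 of 5 libraries.

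Luminal progenitor-like cells had another set. Col4a5 was at 57.2, 59.2, 37.8, 57.7 and 72.5 CPM, and Col4a6 at 35.9, 33.3, 44.1, 32.5 and 35.7. Col16a1 averaged 34.0 ± 9.58, Col9a3 29.2 ± 7.27, Col11a1 27.0 ± 7.33, Col9a2 22.3 ± 8.86, Col9a1 21.7 ± 10.2 and Col12a1 18.8 ± 8.75 (SD, n = 5). All 8 of these genes were above the lymphocyte level in every library, and all 8 belonged to the basal set as well. Each averaged lower in progenitor than in basal cells. Col8a1, at 0.959 in progenitor cells and 51.5 in hormone-sensing cells, differed most plainly between the luminal classes, whereas Col9a1, Col9a2 and Col9a3 were each at 15.6 or more in every library of the progenitor class.

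**Figure D4:**
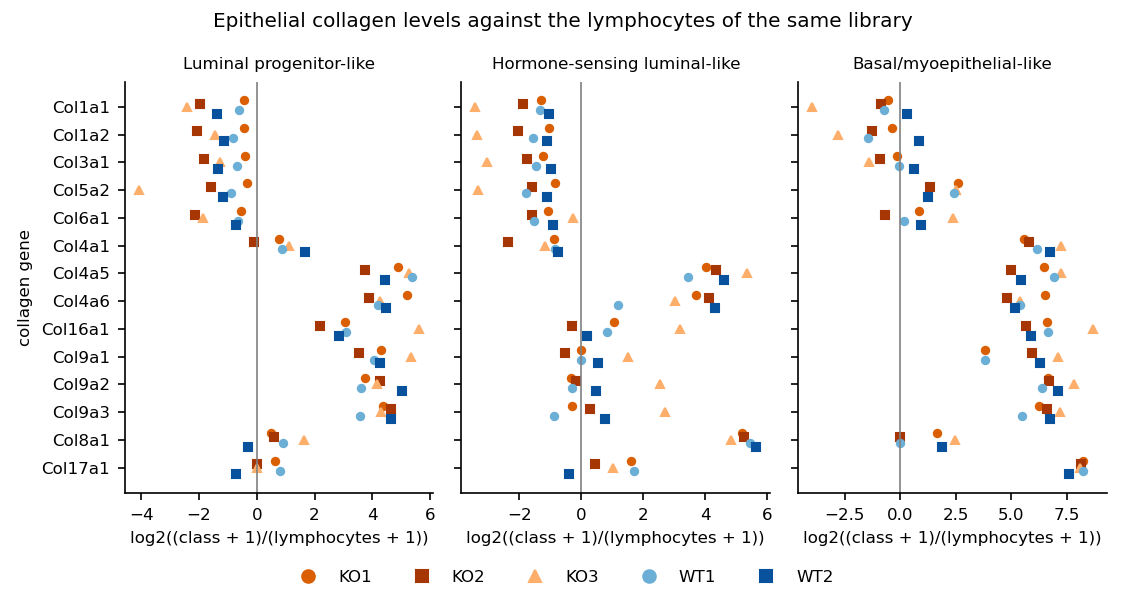
Level of 14 collagen genes in 3 epithelial classes against the lymphocytes of the same library, as log2((CPM + 1)/(lymphocyte CPM + 1)), 1 point per library; the grey line marks equal levels. Col1a1, Col1a2 and Col3a1 lie left of the line in both luminal classes, Col4a5 and Col4a6 to the right in all 3 classes, Col9a1 to Col9a3 to the right in progenitor and basal cells, and Col8a1 to the right in hormone-sensing cells.

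Vascular classes were rich in type IV chains and in Col18a1. Pericyte/smooth muscle-like cells, 89, 41, 25, 59 and 26 in number, had Col4a1 at 1001, 739.0, 1101, 715.8 and 1145 CPM. Col18a1 was at 270.7, 487.9, 257.6, 326.8 and 509.4. Col15a1, the other multiplexin, averaged 2.91 in these cells against 5.74 in lymphocytes and was above the lymphocytes in 2 of 5 libraries. Col19a1, a rare fibril-associated chain with 42 UMIs in the whole series, was at 20.7, 2.04, 15.6, 35 and 8.15 in these cells and at 0.770 in endothelial-like cells, the next class.

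Endothelial collagens split by cluster. Blood endothelial-like cells numbered 18, 125, 172, 42 and 25, and KO1 was left out for having fewer than 20. In KO2, KO3, WT1 and WT2, Col15a1 was at 0.660, 223.4, 242.1 and 0 CPM and Col13a1 at 0, 91.0, 108.9 and 0. Col5a2 was at 371.6, 67.2, 26.6 and 299.1, Col8a1 at 175.6, 31.0, 58.1 and 247.9, and Col18a1 at 419.1, 113.4, 128.3 and 501.4. KO3 and WT1 were thus high where KO2 and WT2 were low, and the reverse. At a finer resolution, cells of KO3 (169) and WT1 (38) lay mostly in a cluster led by the capillary gene Gpihbp1, and cells of KO2 (108) and WT2 (24) in another led by Gkn3, a gene known from arterial endothelium. Col4a1 was at 1483 and 878.8 in the first cluster (KO3, WT1) and at 366.0 and 335.2 in the second (KO2, WT2). With 0 libraries holding at least 20 cells of both clusters, the cluster and the library cannot be told apart.

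Schwann/glial-like cells reached 20 cells in KO1, KO2 and WT2, with 24, 58 and 81 cells. Col28a1, a collagen known from peripheral nerve, was at 133.2, 324.1 and 214.2 CPM there, against 4.49 ± 1.45 in fibroblast-like cells (SD, n = 5). Col20a1 was at 173.2, 16.0 and 42.8, resting on 13, 5 and 21 UMIs. Col11a1 was at 146.5, 757.3 and 242.7, and its mean exceeded that of basal cells, the highest class with at least 4 libraries. Col5a3 was at 639.5, 378.6 and 414.1, close to its fibroblast level. Col1a1, Col1a2 and Col3a1 tags were also present, Col3a1 at 1785, 1813 and 2752, with fibroblast-marker sums of 1878, 1235 and 3686 CPM; their part in the collagen tags was not tested.

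A small unnamed cluster of 126 cells, led by Apod, Myoc and Thbs4, had a higher Col15a1 level than fibroblast-like and Schwann/glial-like cells. It held 35, 23, 3, 22 and 43 cells, and KO3 was left out. All collagen genes together were at 43150, 83223, 33616.5 and 68121.5 CPM in KO1, KO2, WT1 and WT2. This was above the fibroblast-like class in each of these libraries, where the shares were 2.69%, 6.48%, 2.23% and 6.13% of UMIs. Of the fibroblast-like clusters, cluster 8 was higher in WT2 alone, at 70766 CPM. Col15a1 was at 2606, 3709, 2255 and 3175 CPM in KO1, KO2, WT1 and WT2, far above every fibroblast-like cluster. Col28a1 was at 132.7, 145.7, 101.9 and 153.9, Col26a1 at 115.7, 161.4, 74.7 and 149.4, and Col2a1, the cartilage fibril chain, at 68.0, 98.4, 61.1 and 52.1. Schwann/glial-like cells were higher for Col28a1, with a mean of 223.8, and lower for Col26a1, at 14.2, and Col2a1, at 2.04. In fibroblast-like cells Col26a1 averaged 0.716 and Col2a1 0.151. A second unnamed cluster of 69 cells, led by Sfrp5, Tenm2 and Wnt6, reached 20 cells in KO2 and WT2 alone. It had Col6a5 at 354.7 and 109.3, Col4a4 at 105.6 and 65.6, Col23a1 at 67.9 and 94.7 and Col4a3 at 45.3 and 51.0.

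Between genotypes, no collagen gene differed past the threshold in any of 6 classes tested. Class sums of UMIs, 1 per library, were fitted over all genes with edgeR's quasi-likelihood test, 3 KO libraries against 2 WT libraries. A call was an adjusted p of at most 0.05 (Benjamini-Hochberg over all genes). Over all genes edgeR called 0.0% in each of the 6 classes: 0 of 14126 in fibroblast-like, 0 of 11654 in luminal progenitor-like, 0 of 12703 in hormone-sensing luminal-like, 0 of 8034 in basal/myoepithelial-like, 0 of 7775 in blood endothelial-like and 0 of 6005 in pericyte/smooth muscle-like cells. At an unadjusted p under 0.05 these tests gave 101, 102, 98, 69, 45 and 247 genes, and DESeq2 called 0, 0, 1, 0, 0 and 5, none of them a collagen. Simulated 4-fold changes were recovered for 48%, 69%, 58%, 62%, 0% and 14% of genes and 2-fold changes for at most 11%, so differences of these sizes could go undetected, above all in the vascular classes.

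**Figure D5:**
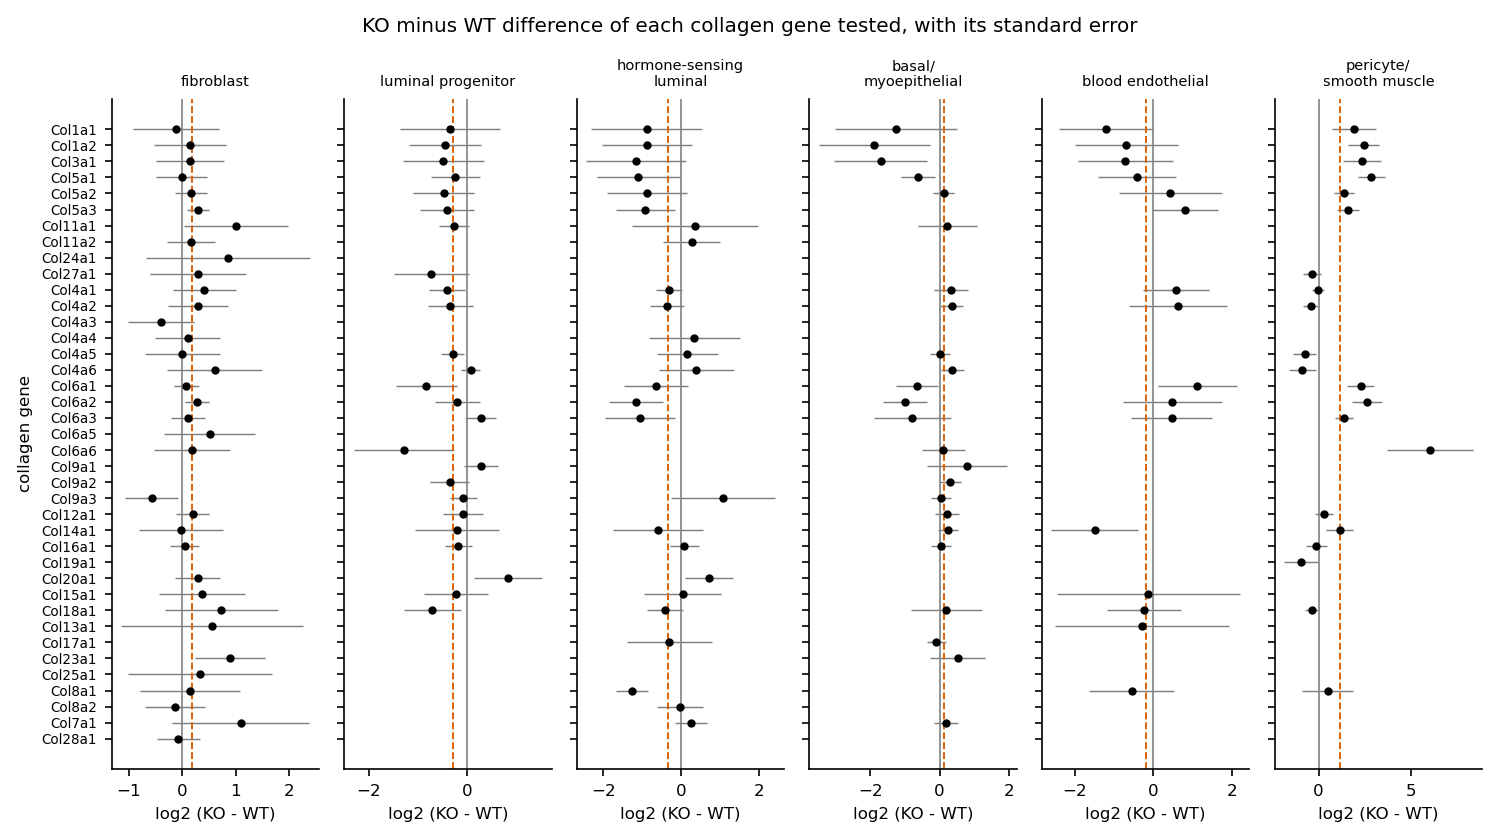
Fitted log2 difference, KO minus WT, of each collagen gene tested in 6 classes (points) with its standard error (bars); dashed lines mark the median over the collagen genes tested, and each panel has its own x scale. Most bars cross 0 in the first 5 panels; in pericyte/smooth muscle-like cells the types I, III, V and VI lie to the right of 0.

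In fibroblast-like cells 35 of the 44 collagen genes passed the filter on low counts. Of these, 28 were higher and 7 lower in KO, where 49.9% of all genes were higher. None of the 35 had an unadjusted p under 0.05, against 0.715% of all genes. The median log2 difference was 0.19 (range -0.57 to 1.09), beside -0.00065 over all genes. Levels after TMM scaling are given for the genotype comparison. Col1a1 was at 3882, 15180 and 6378 in KO and 3113 and 15173 in WT. Its log2 difference was -0.11 ± 0.80 (SE; edgeR adjusted p = 0.999), and the genotypes overlapped fully. Col3a1 differed by 0.15 ± 0.63, Col1a2 by 0.14 ± 0.67, Col4a1 by 0.42 ± 0.59, Col4a2 by 0.29 ± 0.56 and Col6a3 by 0.11 ± 0.32.

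None of these fibroblast differences passed the test. The smallest unadjusted p-values were those of Col5a3, Col23a1, Col6a2, Col9a3 and Col11a1. Col5a3 was at 561.8, 513.7 and 680.8 in KO and 469.7 and 484.5 in WT, every KO library above both WT libraries. It differed by 0.30 ± 0.20 (edgeR unadjusted p = 0.189). It was the 1 collagen gene so separated upward, against 4.96% of all genes, and 0 were separated downward, against 4.64%. Col6a2 differed by 0.28 ± 0.23, Col23a1 by 0.89 ± 0.66, Col11a1 by 1.005 ± 0.97 and Col9a3 by -0.57 ± 0.49. Of the 43 partner genes tested, which include the collagen chaperone Serpinh1 and the cross-linking enzyme Lox, 20 were higher, 23 lower and 0 called, with a median of -0.0066. The 4 partner genes with the smallest unadjusted p were Loxl4 (-0.38 ± 0.30), Tll1 (-0.999 ± 0.80), Adamts14 (0.22 ± 0.20) and Plod1 (0.20 ± 0.23).

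Pericyte/smooth muscle-like cells had the largest collagen differences, again with 0 calls. Col5a1 was at 35.1, 152.6 and 133.2 CPM in KO and 14.5 and 13.3 in WT. Col6a2 was at 66.9, 463.9 and 408.1 in KO and 43.4 and 57.8 in WT, and Col1a2 at 179.0, 1128 and 566.3 in KO and 59.9 and 177.9 in WT. For these genes KO2 and KO3 were far above WT; KO1 was close to WT2 for Col6a2 and Col1a2, and above both WT libraries by a smaller margin for Col5a1. Col5a1 differed by 2.85 ± 0.73 (edgeR unadjusted p = 0.00331, adjusted p = 0.989), Col6a2 by 2.62 ± 0.80 and Col6a1 by 2.29 ± 0.73. Col3a1 differed by 2.37 ± 1.02, Col1a2 by 2.44 ± 0.82, Col1a1 by 1.94 ± 1.19 and Col6a3 by 1.39 ± 0.48. The type IV chains did not follow: Col4a1 differed by -0.04 ± 0.35 and Col4a2 by -0.42 ± 0.41.

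Of the 21 collagen genes tested in these cells, 13 were higher and 8 lower (50.4% of all genes were higher), with a median of 1.14 beside 0.0034 over all genes. At an unadjusted p under 0.05 there were 8 of 21, against 4.11% of all genes, all of them fibrillar or type VI chains. Every KO library was above every WT library for 6 of 21, against 10.8% of all genes, and below for 0, against 9.94%. With no filter on low counts edgeR called 5 of them (Col1a2, Col5a1, Col6a1, Col6a2 and Col6a6). That fit also called genes outside the collagens, and its calls over all genes are counted in the closing section. One of these, Col6a6, rested on 2, 15 and 5 UMIs in KO and 0 in WT. Of 30 partner genes, 26 were higher, 4 lower and 0 called, with a median of 0.56; Sparc differed by 1.28 ± 0.47, Serpinh1 by 1.02 ± 0.42, Tnxb by 2.34 ± 1.01 and Loxl2 by 2.30 ± 1.03.

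Some markers within the pericyte/smooth muscle-like class also differed between the genotypes, without a test. The pericyte marker Rgs5 was at 1538, 932.9 and 2537 CPM in KO and 834.4 and 232.3 in WT, and Abcc9 at 164.0, 128.6 and 741.5 in KO and 44.7 and 24.5 in WT. The smooth muscle marker Myh11 was at 4471, 3601 and 1905 in KO and 4707 and 5775 in WT. Of the 12 pericyte and smooth muscle markers looked at, every KO library was above every WT library for 5 (Rgs5, Kcnj8, Abcc9, Higd1b and Pdgfrb) and below for 2 (Myh11 and Mcam). The genotypes overlapped for the other 5, which were Des, Cspg4, Notch3, Acta2 and Tagln. Over all genes tested in this class, 10.8% were so separated upward and 9.94% downward. Some of the marker separations were narrow: Higd1b was at 67.4 in KO2 against 64.2 in WT1, and Mcam at 343.9 in KO1 against 346.2 in WT1. The fibroblast-marker sum was 2440 in KO2 against 815.0 to 952.3 in the other 4 libraries, and KO3 cells had 9320 heat-shock CPM against 313.8 to 592.0. The part of these in the collagen differences was not tested.

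In the epithelium 0 collagen genes were called as well. Luminal progenitor-like cells had 25 collagen genes tested, 4 higher and 21 lower (49.7% of all genes were higher), with a median of -0.29, and 0.32 without WT2. None of the 25 had an unadjusted p under 0.05, against 0.875% of all genes. Every KO library was above WT for 1 of them, Col20a1, against 6.62% of all genes, and below for 1, Col18a1, against 6.79%. Hormone-sensing luminal-like cells had 26 tested, 10 higher and 16 lower (49.9% of all genes were higher), with a median of -0.33, and 0.77 without WT2. Col8a1 there was at 35.4, 37.8 and 26.4 in KO and 44.1 and 114.5 in WT, a log2 difference of -1.25 ± 0.41 (edgeR unadjusted p = 0.0225, adjusted p = 0.9999). It was the 1 collagen gene at an unadjusted p under 0.05 in this class, against 0.771% of all genes, and the 1 with every KO library below WT, against 5.76%. No collagen gene had every KO library above WT, against 5.31%. WT2, at 114.5, lay far above WT1, and WT1 was close to the KO libraries. Basal/myoepithelial-like cells had 24 tested, 16 higher and 8 lower (50.9% of all genes were higher), with a median of 0.12. None of the 24 had an unadjusted p under 0.05, against 0.859% of all genes, and 0 were separated between genotypes, against 4.99% of all genes above and 5.44% below.

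The same fixed genes were followed through the epithelial fits. In luminal progenitor-like cells Col4a1 differed by -0.40 ± 0.37, Col4a2 by -0.34 ± 0.46, Col6a3 by 0.28 ± 0.32, Col1a1 by -0.35 ± 1.01, Col1a2 by -0.44 ± 0.73 and Col3a1 by -0.48 ± 0.82. Col6a1, at -0.82 ± 0.62, and Col6a6, at -1.28 ± 1.02, had the smallest unadjusted p-values there together with Col4a5, at -0.29 ± 0.23. In hormone-sensing cells Col1a1 differed by -0.89 ± 1.42, Col1a2 by -0.87 ± 1.16, Col4a1 by -0.31 ± 0.33, Col4a2 by -0.36 ± 0.44, Col3a1 by -1.15 ± 1.28, Col6a3 by -1.06 ± 0.91, Col6a2 by -1.16 ± 0.68 and Col5a3 by -0.92 ± 0.76. Col1a1, Col1a2 and Col3a1 are among the genes that lay below the lymphocyte level in both classes. In basal cells Col4a1 differed by 0.33 ± 0.49, Col4a2 by 0.34 ± 0.32, Col3a1 by -1.70 ± 1.34, Col1a2 by -1.88 ± 1.60 and Col1a1 by -1.26 ± 1.76. WT2 was the highest basal library for those 3 fibrillar genes. Col6a2 differed by -1.001 ± 0.63, Col5a1 by -0.62 ± 0.49 and Col6a3 by -0.78 ± 1.12 there. With WT1 left out, Col3a1 was called in basal cells, at -2.58 (edgeR adjusted p = 0.000821). That fit sets the KO libraries against WT2 alone, takes its spread from the KO libraries, and rests on the library with the most fibroblast-marker RNA in basal cells, so it compares those libraries and not the genotypes.

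Blood endothelial-like cells had 16 collagen genes tested over 2 KO and 2 WT libraries, 7 higher and 9 lower (50.0% of all genes were higher), with a median of -0.18. None of the 16 had an unadjusted p under 0.05, against 0.579% of all genes. Every KO library was above every WT library for 0 of them, against 10.5% of all genes, and below for 0, against 11.2%. Col14a1 was at 26.9 and 10.6 in KO and 9.67 and 98.0 in WT, a difference of -1.49 ± 1.10. Col6a1 differed by 1.13 ± 0.997, Col4a1 by 0.58 ± 0.84, Col4a2 by 0.63 ± 1.25, Col1a1 by -1.20 ± 1.19, Col1a2 by -0.69 ± 1.32, Col3a1 by -0.71 ± 1.21 and Col6a3 by 0.47 ± 1.04. None passed the test, and the cluster split described above crosses the genotypes.

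The remaining genes were rare in the classes with at least 4 libraries. Col2a1, Col4a3, Col6a5, Col20a1, Col26a1 and Col28a1 reached higher levels in the Schwann/glial-like cells or unnamed clusters described above. Of the 13 collagen genes that stayed under 10 CPM in every class with at least 4 libraries, Col6a5 was highest, at 7.47 ± 6.74 in fibroblast-like cells (SD, n = 5), with 19.0 in KO1 and 2.85 to 8.04 in the others, and at 6.85 in pericyte-like cells. Col6a4 was at 6.44 in basal cells and at no more than 0.408 in the next class. Col11a2 and Col8a2 had their highest means, 5.69 and 2.88, in neutrophil-like and NK/innate lymphoid-like cells. The neutrophil level of Col11a2 was above that of macrophage-like cells, the next class, in 1 of 4 libraries. For Col8a2 the NK level was above the next class in 5 of 5. Col4a3, Col28a1 and Col26a1 had theirs, 4.51, 4.49 and 0.716, in fibroblast-like cells, as did Col22a1 with its 1 UMI. Col25a1 and Col24a1 were at most at 5.08 and 1.56, in pericyte-like cells, Col2a1 at 3.66 in basal cells, Col20a1 at 1.75 in endothelial-like cells and Col10a1 at 0.176 in NK/innate lymphoid-like cells.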

How the data were processed

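Single cells of mammary gland from 5 mice were profiled with the 10x Genomics 3′ kit, version 3, per the labels' protocols. The authors deposited raw UMI counts per gene and barcode, which came from Cell Ranger (6.1.2 in KO3, 6.0.2 in every other library), per the file headers. The genome build was mm10, per the submitters' processing notes. The annotation release is not given in the sources used here. Gene positions came from GENCODE mouse release 21, in which all 44 collagen genes matched by ID.

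Barcodes needed 500 genes or more and no more than 15% mitochondrial UMIs, which 28588 had. Doublets were scored against 2 simulated doublets per cell and the top 0.8% per 1000 barcodes were removed (1754), which left 9450, 4440, 2218, 4831 and 5895 cells (KO1, KO2, KO3, WT1, WT2). The libraries held 74947873, 66053067, 24197344, 55783468 and 87577099 UMIs. Counts scaled to 10000 were log-transformed, 2000 variable genes chosen without collagen genes, 30 components taken, and a graph of 20 neighbours clustered with Leiden (leidenalg 0.10.2) at resolution 1, with no batch correction.

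Of 29 clusters, 7 stayed unnamed. A name needed 3 markers in at least 10% of cells, above their level elsewhere, and a mean marker log2 difference of at least 0.5 from the other cells. These naming thresholds, the rule that leaves out proliferating, haemoglobin-led and fibroblast-mixed clusters, and the counting of fibroblast subset markers as fibroblast markers were settled after marker and collagen levels of the clusters had been seen; earlier versions left most fibroblast clusters unnamed. The collagen genes, gene lists and marker lists were chosen with earlier results of these data known.

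Counts were summed per library and class with at least 20 cells and fitted in edgeR 4.0.16 (filterByExpr, TMM, robust quasi-likelihood; R 4.3.3), with DESeq2 1.42.0 as an alternative. SE is the absolute log2 difference over the square root of F. Genes were named by level (means of at least 50 CPM in a class, up to 10 of them) and by genotype (the smallest p-values, up to 5 in fibroblast-like and 3 in other classes, plus Col1a1, Col1a2, Col3a1, Col4a1, Col4a2 and Col6a3). Genes below the level minimum were named, and unnamed and endothelial clusters described, after their values were seen. In tests on simulated data false calls numbered 10, 11, 6, 6, 0 and 1 (fibroblast-like, luminal progenitor-like, hormone-sensing luminal-like, basal, blood endothelial-like, pericyte/smooth muscle-like), in the first 4 classes more than 5% of the calls. Each library is 1 mouse, so the tests set the genotype difference against the spread between libraries of a genotype. In that spread, mouse and library preparation cannot be told apart.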

Additional observations from a re-analysis of the deposited data

How the results depend on the processing

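The number of collagen genes called stayed at 0 in fibroblast-like, luminal progenitor-like, hormone-sensing luminal-like and blood endothelial-like cells under DESeq2, no filter on low counts, each library left out, the stricter cell filter and doublets kept. In basal cells it was 0 to 1 with 1 library left out; the call was Col3a1 without WT1, where the lone WT2 is assumed to vary like the KO libraries. In pericyte/smooth muscle-like cells it was 5 with no filter on low counts (Col1a2, Col5a1, Col6a1, Col6a2 and Col6a6, at 2.47, 2.86, 2.28, 2.62 and 6.04, with 79 calls over all genes) and 1 with the replicate block (Col3a1, 2.41, edgeR adjusted p = 0.0165). The cause was not tested. The labels give no shared source for equal replicate numbers, and with 2 pairs the numbers do not pair the mice by design; deviations of same-numbered libraries correlated at 0.209 to 0.756. The block changed no other collagen call, and endothelial cells could not be fitted with it.

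With 1 library left out, the collagen median ranged from -0.79 (without WT1) to 0.32 (without WT2) in luminal progenitor-like, -0.58 to 0.77 in hormone-sensing luminal-like, -1.21 to 0.97 in blood endothelial-like and -0.13 to 0.55 in basal cells, so its sign was not stable in these 4 classes. It stayed above 0 in fibroblast-like cells (0.055 to 0.41) and pericyte/smooth muscle-like cells (0.83 to 1.79). The endothelial median was 0.45 with no filter and 0.26 with doublets kept, and the basal median -0.01 with the replicate block. Movement of a median was judged against the median standard error of its genes, which is wide. Of 520 alternative values of the 54 differences named, 62 had the opposite sign, with no call in either fit.

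With doublets kept, the collagen share rose to 0.246% in B cell/plasma-like, 0.116% in NK/innate lymphoid-like, 0.218% in T cell-like, 0.189% in all lymphocytes, 0.124% in macrophage-like, 0.419% in neutrophil-like, 0.0777% in hormone-sensing and 0.112% in luminal progenitor-like cells. The neutrophil share was 0.194% with the stricter cell filter. Low shares therefore rest on doublet removal. Depth limits genes of a few UMIs.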
